A study of Mus musculus with 47 samples.

Results

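The endothelial cells that line brain vessels form the blood-brain barrier, and 42 genes that mark or build that barrier were followed here through the hippocampus of young and old mice given PF4 or vehicle. The genes were taken by name from a list of brain endothelial genes, and all 42 were found among the 35486 genes of the count table. All 42 also passed the filter on low counts that left 17778 genes for testing. By role the list holds 6 junction genes, 9 carriers and pumps, 9 receptors, 6 transcription factors and 12 surface or secreted proteins.

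Brain endothelial cells are sealed to one another by tight and adherens junctions, so that most solutes enter the brain only through carriers in the endothelial membrane. Pumps return lipophilic compounds to the blood, vesicle traffic across the cell is held low, and Wnt signals from the surrounding tissue keep this program on. In the hippocampus, endothelial cells are a small part of all cells, so whole-tissue RNA carries their transcripts at modest levels beside those of neurons and glia.

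The study asked how platelet factor 4 (PF4, a chemokine released by activated platelets) acts on the brain at different ages. Bulk RNA sequencing of the hippocampus gave 47 libraries from male mice on a C57BL/6J background, each taken as 1 mouse. Young Veh (n = 13) and Young PF4 (n = 12) were 3.75 to 5.26 months old, and Old Veh (n = 12) and Old PF4 (n = 10) were 17.4 to 20.23 months old. PF4 groups received mouse PF4 and Veh groups vehicle (phosphate-buffered saline), which the study's methods give as intraperitoneal injections. RNA came from homogenized hippocampus, with no step described that enriched vessels. Fewer endothelial cells, less RNA per endothelial cell and a change of the same transcripts in other cells of the tissue therefore cannot be told apart.

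Total counts ran from 2242879 to 21112908 per library, and 8 libraries held under 5000000. A choroid plexus marker score, the mean log2 CPM of 10 genes of that tissue (CPM being counts scaled to a common library size with TMM factors), split the libraries into 23 below and 24 above a gap centred at 3.76. The gap ran from 3.35 to 4.17 on a score from -0.13 to 6.13. The low side held 5 of 13 Young Veh, 4 of 12 Young PF4, 8 of 12 Old Veh and 6 of 10 Old PF4 libraries, with group medians of 5.07, 5.44, 0.91 and 1.30. Young libraries carried numbers 24 to 48 in their labels and old libraries 1 to 23, so that library number and age cannot be told apart. Old Veh held numbers 1 to 12 and Old PF4 13 to 23, so number and treatment cannot be told apart in old mice either. The young groups interleaved, with 24 to 43 in Young Veh and 28 to 48 in Young PF4.

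All 42 genes had reads in every library. Their summed level averaged 1423 CPM over the libraries, with a range from 1229 to 1673 CPM. Per kilobase of the longest transcript, the median of the 42 genes was 6.42 CPM, against 5.73 CPM over the 17666 tested genes with a length, and 23 of the 42 lay above that median. The endothelial genes as a whole sat near the middle of the hippocampal transcriptome, with a wide spread among themselves.

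Itm2a, a membrane protein used as a marker of brain endothelium, was the highest at 50.4 CPM per kilobase (33.5 to 75.4 over libraries). Ramp2, the partner of the adrenomedullin receptor, followed at 46.5 and is the highest of the receptors, but 1103 of its exonic bases are shared on the same strand with Vps25, a gene with 22823 reads of its own against 33479 for Ramp2. Slc2a1, the glucose carrier of the barrier (Glut1), led the carriers at 32.8 CPM per kilobase. Cldn5, the main claudin of brain tight junctions, led the junction genes at 12.8, and Klf2, a transcription factor induced by blood flow, led the transcription factors at 6.50. At the other end stood Erg, an endothelial transcription factor of the ETS family, at 0.344 CPM per kilobase, with 1 to 35 reads per library. Robo4 (0.812), Klf4 (0.866) and Vwf (1.05 CPM per kilobase) were the next lowest.

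**Figure D1:**
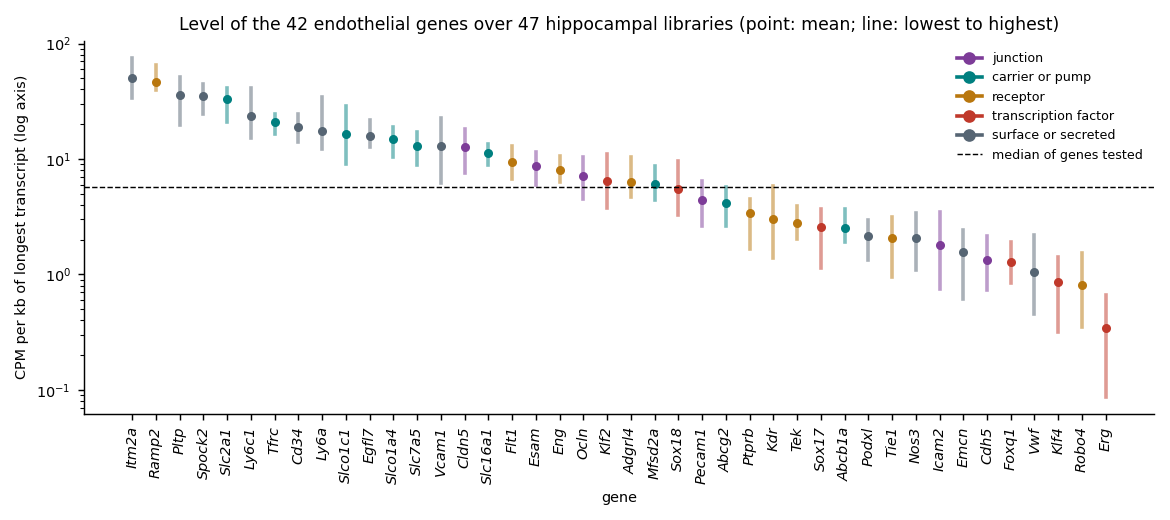
Level of each of the 42 genes in CPM per kilobase of its longest transcript (vertical log axis), with the mean as a point and a line from the lowest to the highest of 47 libraries, coloured by role. The levels ran from 0.344 for Erg to 50.4 for Itm2a, and the dashed line is the median of the tested genes, 5.73.

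Several genes have exons that overlap a neighbour, or have a close copy, and reads shared with either were not measured. The unstranded libraries cannot separate overlapping exons on opposite strands. Pltp (phospholipid transfer protein) overlaps Ctsa over 495 exonic bases. Egfl7 overlaps Gm20532 on the same strand, Agpat2 and the Mir126 genes over 459 bases in all. Nos3 overlaps Atg9b and a further gene over 1334 bases, and Foxq1 overlaps A530084C06Rik over 3200 bases. Among close copies, Ly6c2 had 10 reads in all libraries against 9422 for Ly6c1, Slco1a5 had 424 against 27119 for Slco1a4, and Abcb1b had 1859 against 5885 for Abcb1a.

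The first comparison asked which barrier genes differed between old and young hippocampus, taking the mean of both treatments. Of the 42 genes, 6 were lower in old mice and 1 was higher at an adjusted p below 0.05 (edgeR quasi-likelihood test, Benjamini-Hochberg over all genes tested). Those 6 are 14.3% of the list, where 1.41% of all tested genes were called lower, and the 1 higher gene is 2.38% of the list, where 3.31% of all tested genes were called higher. In either direction 16.7% of the list and 4.71% of all tested genes were called. The lower genes were Klf2, the adhesion molecule Vcam1, and the carriers Mfsd2a, Slco1c1, Slc7a5 and Tfrc. Cd34, a sialomucin of the endothelial surface, was the higher one. Log2 fold changes lay below 0 for 37 of the 42 genes, with a median of -0.067 against -0.004 over all tested genes.

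**Figure D2:**
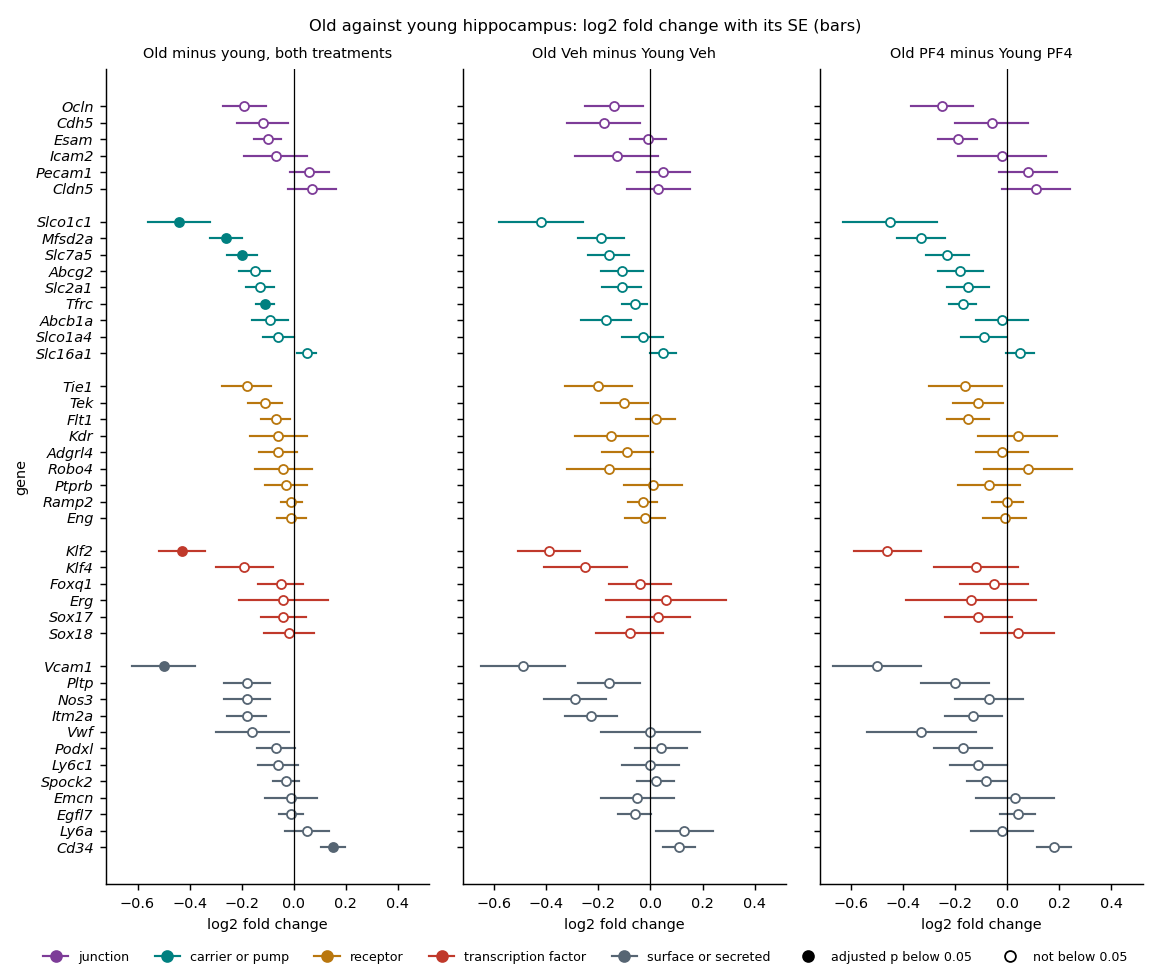
Log2 fold change of old against young mice (horizontal axis) with its SE as a bar for each of the 42 genes, grouped by role, over both treatments, in vehicle and in PF4. Filled points mark the 7 genes with an adjusted p below 0.05, which appear only in the panel over both treatments.

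Among the junction genes none of 6 was called by edgeR between ages, with 1 at an unadjusted p below 0.05, and DESeq2 called 0 as well. Cldn5 had medians of 17.0 CPM in Young Veh, 18.0 in Young PF4, 18.3 in Old Veh and 18.5 in Old PF4, and all groups overlapped. Its log2 fold change between ages was 0.07 ± 0.091 (SE, adjusted p = 0.732). Ocln (occludin) had the smallest p of the junction genes, with a log2 fold change of -0.19 ± 0.082 and an adjusted p of 0.177. The adherens junction cadherin Cdh5 (-0.12), the adhesion molecules Esam (-0.10), Icam2 (-0.07) and Pecam1 (0.06) had log2 fold changes with adjusted p from edgeR of 0.280 or higher.

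The carriers held most of the called genes, 4 of 9, all lower in old mice, and the values of each follow. Mfsd2a carries lysophosphatidylcholine with docosahexaenoic acid into the brain and holds vesicle traffic low. In CPM it ran from 10.2 to 17.5 in Young Veh (median 13.9), 10.4 to 18.6 in Young PF4 (14.6), 10.6 to 15.2 in Old Veh (12.1) and 9.43 to 14.4 in Old PF4 (10.8). The ages overlapped, but 20 of 22 old libraries were below the young median, and 8 of 25 young libraries were above every old one. The log2 fold change was -0.26 ± 0.063 (adjusted p = 0.00824).

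Slco1c1 carries thyroxine across the barrier and is also known from the choroid plexus. It ran from 36.7 to 91.5 CPM in Young Veh (median 55.4), 37.3 to 76.6 in Young PF4 (63.4), 31.5 to 82.9 in Old Veh (36.1) and 28.9 to 64.4 in Old PF4 (40.1). Of the old libraries, 10 lay below every young one, and 18 of 22 lay below the young median. The log2 fold change was -0.44 ± 0.12 (adjusted p = 0.0227). The choroid plexus score lay below the gap in 14 of 22 old and 9 of 25 young libraries, and with that score as a covariate the log2 fold change was -0.09 (adjusted p = 0.437).

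Slc7a5 is the light chain of the large neutral amino acid carrier (Lat1). It ran from 34.2 to 60.0 CPM in Young Veh (median 49.7), 39.2 to 58.7 in Young PF4 (49.2), 33.5 to 54.1 in Old Veh (43.4) and 31.2 to 48.1 in Old PF4 (42.4). All groups overlapped, with 20 of 22 old libraries below the young median, and the log2 fold change was -0.20 ± 0.057 (adjusted p = 0.0325). Slc7a5 moved with the length index, the level of long against short genes in a library, at r = 0.52 and rho = 0.35 over 47 libraries (adjusted p = 0.00929 and 0.188, permutation test), with r = 0.29 without the 2 farthest libraries. With that index as a covariate, added after the data had been seen, its log2 fold change was -0.22 (adjusted p = 0.00198 in edgeR). Tfrc, the transferrin receptor through which iron enters, changed least. It ran from 80.5 to 117 CPM in Young Veh (median 102), 91.4 to 119 in Young PF4 (109), 81.2 to 114 in Old Veh (97.6) and 91.1 to 104 in Old PF4 (98.9), a log2 fold change of -0.11 ± 0.035 (adjusted p = 0.0488).

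The remaining carriers did not pass the test. Slc2a1 ran from 71.9 to 134 CPM in Young Veh (median 111), 89.4 to 129 in Young PF4 (114), 77.0 to 116 in Old Veh (103) and 68.4 to 118 in Old PF4 (103). The groups overlapped, although 9 of 25 young libraries lay above every old one, and the log2 fold change was -0.13 ± 0.055 (adjusted p = 0.177). The efflux pump Abcg2 had a log2 fold change of -0.15 ± 0.059 (adjusted p = 0.148) and the pump Abcb1a (P-glycoprotein) one of -0.09 ± 0.069 (adjusted p = 0.499). The organic anion carrier Slco1a4 stood at -0.06, and the lactate carrier Slc16a1 at 0.05 was the only carrier above 0.

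None of the 9 receptors was called by edgeR, none had an unadjusted p below 0.05, and DESeq2 called 0. All 9 log2 fold changes between ages lay below 0, from -0.18 ± 0.094 for Tie1 (adjusted p = 0.280) to -0.01 ± 0.041 for Ramp2 (adjusted p = 0.917), with a median of -0.056. The VEGF receptors Flt1 and Kdr stood at -0.07 and -0.06, and the angiopoietin receptor Tek at -0.11. The endoglin gene Eng (-0.01), the adhesion receptor Adgrl4 (-0.06), the guidance receptor Robo4 (-0.04) and the phosphatase Ptprb (-0.03) lay within 1 SE of 0.

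Klf2 was the only transcription factor of 6 that was called. It ran from 8.88 to 19.5 CPM in Young Veh (median 13.3), 10.3 to 20.5 in Young PF4 (13.0), 6.99 to 14 in Old Veh (10.2) and 6.94 to 13.6 in Old PF4 (9.73). The ages overlapped, with 20 of 22 old libraries below the young median, 7 old libraries below every young one and 8 young libraries above every old one. The log2 fold change was -0.43 ± 0.089 (adjusted p = 0.00167), the smallest p of the 42 genes. Its relative Klf4 stood at -0.19 ± 0.11 (adjusted p = 0.379) on 5 to 63 reads per library. Erg, Sox17, Sox18 and Foxq1 had log2 fold changes from -0.05 to -0.02 with SEs from 0.087 to 0.17.

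Of the 12 surface and secreted proteins, 1 was lower and 1 higher. Vcam1, to which circulating leukocytes bind, ran from 38.1 to 92.9 CPM in Young Veh (median 58.5), 33 to 77.9 in Young PF4 (69.3), 25.4 to 73.8 in Old Veh (37.9) and 31.7 to 72.9 in Old PF4 (37.9). Of the old libraries 19 of 22 lay below the young median and 5 below every young one, and the log2 fold change was -0.50 ± 0.12 (adjusted p = 0.00733), the largest in size of the 42. With the choroid plexus score as a covariate it was -0.23 (adjusted p = 0.124 in edgeR). Among libraries below the gap of that score it was -0.54 (adjusted p = 0.0502 in edgeR). Cd34 ran from 44.2 to 67.1 CPM in Young Veh (median 57.5), 42.6 to 64.1 in Young PF4 (53.5), 47.4 to 74.9 in Old Veh (60.3) and 54.1 to 69.9 in Old PF4 (62.7). Here 17 of 22 old libraries lay above the young median and 5 above every young one, a log2 fold change of 0.15 ± 0.046 (adjusted p = 0.0483).

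Itm2a had medians of 90.2 and 89.1 CPM in Young Veh and Young PF4 and of 81.0 and 73.2 CPM in Old Veh and Old PF4, a log2 fold change of -0.18 ± 0.075 that did not pass (adjusted p = 0.166). Pltp and Nos3 (endothelial nitric oxide synthase) stood at -0.18 each, with adjusted p of 0.249 and 0.244 from edgeR. The surface antigens Ly6c1 (-0.06) and Ly6a (0.05), the sialomucins Emcn (-0.01) and Podxl (-0.07), the secreted Egfl7 (-0.01) and Spock2 (-0.03), and the clotting protein Vwf (-0.16 ± 0.14) had adjusted p of 0.584 or higher.

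**Figure D3:**
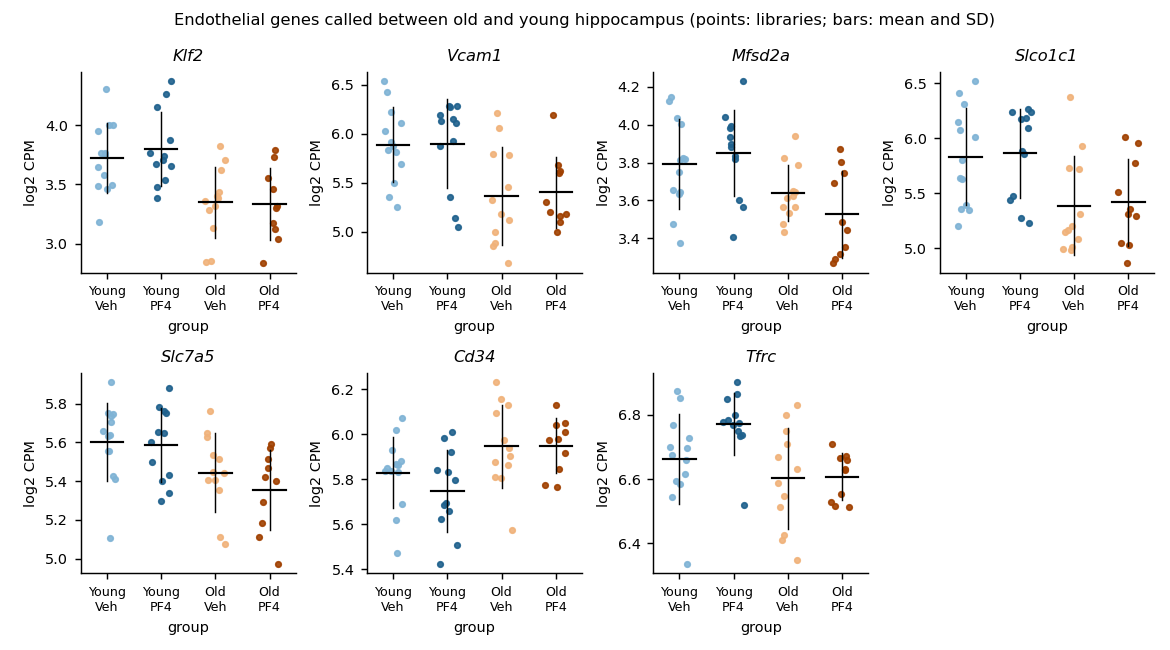
Log2 CPM (vertical axis) of the 7 called genes in each of 47 libraries by group, with points for libraries and bars for the group mean and SD. The old groups sit lower for 6 genes and higher for Cd34, and the groups overlap for every gene.

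The sequence just before the transcription start is shown for 4 of the 7 called genes, to set genes that were lower with age beside the one that was higher. RefSeq promoters on GRCm38.p6 were at hand for 27 of the 42 genes, among them Klf2, Mfsd2a, Slco1c1, Cd34 and Tfrc; Vcam1 and Slc7a5 are named only. Each run holds the 250 bases before the RefSeq start, 5′ to 3′ on the strand of the gene, with capitals where a searched motif or its reverse complement occurs. Klf2 lies at chr8:72318812-72319061 (plus strand), Mfsd2a at chr4:122961189-122961438 (minus strand), Slco1c1 at chr6:141524104-141524353 (plus strand) and Cd34 at chr1:194938571-194938820 (plus strand).
Klf2: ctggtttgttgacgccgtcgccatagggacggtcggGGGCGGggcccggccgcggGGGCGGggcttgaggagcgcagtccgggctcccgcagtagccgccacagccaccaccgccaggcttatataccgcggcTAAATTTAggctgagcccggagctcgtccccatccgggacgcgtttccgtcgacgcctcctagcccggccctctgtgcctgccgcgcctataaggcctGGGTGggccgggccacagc
Mfsd2a: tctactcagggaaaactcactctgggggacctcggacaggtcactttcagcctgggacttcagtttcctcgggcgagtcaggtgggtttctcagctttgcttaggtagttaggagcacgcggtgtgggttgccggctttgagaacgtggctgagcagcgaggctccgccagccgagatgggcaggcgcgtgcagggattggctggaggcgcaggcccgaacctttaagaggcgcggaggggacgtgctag
Slco1c1: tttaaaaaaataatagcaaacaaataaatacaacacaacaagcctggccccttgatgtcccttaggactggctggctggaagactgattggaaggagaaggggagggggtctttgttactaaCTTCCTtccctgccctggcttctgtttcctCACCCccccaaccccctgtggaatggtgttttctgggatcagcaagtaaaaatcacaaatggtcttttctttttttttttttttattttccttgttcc
Cd34: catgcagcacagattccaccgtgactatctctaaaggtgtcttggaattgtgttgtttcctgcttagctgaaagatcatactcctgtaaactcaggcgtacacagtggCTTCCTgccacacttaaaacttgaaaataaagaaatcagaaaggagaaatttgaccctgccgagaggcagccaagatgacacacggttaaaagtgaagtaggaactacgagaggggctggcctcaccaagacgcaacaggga

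Searched were 9 short motifs on both strands in the same 250 bases of 27025 genes, and overlaps between motifs were allowed. A gene was counted where any of its listed starts held the motif, and 6 of the 27 barrier genes had more than 1 start. The Klf2 sequence held the GC box GGGCGG at 214 and 195 bases before the start, a CACCC box (as GGGTG) at 19 bases and TAAATTTA, a palindromic match to the MEF2 motif, at 117 bases. TAAATTTA was added to the search after the Klf2 sequence had been read, and 0.592% of genes held it, among them Klf2 and Erg. The ETS core AGGAAG was found in Slco1c1 and Cd34 on the reverse strand (as CTTCCT), at 128 and 142 bases, and Slco1c1 also held CACCC at 98 bases. Mfsd2a held none of the 9, which says only that these letters are not in this window. Over all genes the GC box occurred in 35.4%, CACCC in 54.5% and AGGAAG in 32.3%, and 14, 21 and 16 of the 27 barrier genes held them. The SOX core AACAAT (10.9% of genes) was in 4 of 27, the FOX core GTAAACA (3.54%) in 1, the NF-kB core GGGNNTTCC (5.61%) in 1, TATAAA (14.3%) in 3 and the E box CACGTG (6.86%) in 2. A match is a description of the letters and not a site of binding.

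In GRCm38, Klf2 spans chr8:72319033-72321656, Vcam1 chr3:116109949-116129688, Mfsd2a chr4:122946850-122961188, Slco1c1 chr6:141524368-141570177, Slc7a5 chr8:121881150-121907694, Tfrc chr16:32608920-32632794 and Cd34 chr1:194938819-194961279. All are protein-coding, and the counts are of reads assigned to the gene as a whole. Exons of Vcam1 and Cd34 overlap noncoding genes on the opposite strand over 61 and 148 bases, with 489 and 2284 reads for those neighbours against 24900 and 28318 for Vcam1 and Cd34.

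Each treatment was then taken alone, in comparisons that share no libraries. Between Old Veh and Young Veh, where 2.77% of all tested genes were called, edgeR called 0 of the 42 genes, with 7 lower and 0 higher at an unadjusted p below 0.05, and DESeq2 called 1, Klf2. The smallest p belonged to Klf2 (log2 fold change -0.39 ± 0.12, adjusted p = 0.0642) and Vcam1 (-0.49 ± 0.16, adjusted p = 0.0941). Slco1c1 (-0.42 ± 0.16), Nos3 (-0.29 ± 0.12) and Itm2a (-0.23 ± 0.10) came next. In Nos3 10 of 12 Old Veh libraries lay below the Young Veh median.

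Between Old PF4 and Young PF4, where 0.332% of all tested genes were called, edgeR and DESeq2 each called 0 of the 42, with 9 lower and 1 higher at an unadjusted p below 0.05 in edgeR and 10 in all in DESeq2. Mfsd2a had the smallest p (-0.33 ± 0.092, adjusted p = 0.119), followed by Klf2 (-0.46 ± 0.13), Tfrc (-0.17 ± 0.052), Vcam1 (-0.50 ± 0.17) and Slc7a5 (-0.23 ± 0.083). In Mfsd2a all 10 Old PF4 libraries lay below the Young PF4 median, and in Tfrc likewise 10 of 10. The log2 fold changes of the 7 genes called over both treatments had the same sign in vehicle and in PF4. Those genes were called on the mean of both age effects, so equal signs were favoured in advance and are no separate evidence.

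Levels of other tissues in the dissection moved with age and with some of these genes. The 10 choroid plexus markers were all detected in at least part of the libraries and none was called between ages by edgeR or DESeq2, with 6 and 5 of 10 at an unadjusted p below 0.05. Their summed level ran from 12.0 to 4259 CPM in Young Veh, 94.0 to 3448 in Young PF4, 15.1 to 4259 in Old Veh and 25.9 to 3279.8 in Old PF4, and Kcne2, Otx2, Aqp1 and Slc4a5 were at 0 reads in 2, 2, 4 and 3 libraries. Of the 8 fibroblast and meninges markers, Col1a1 (-0.66 ± 0.17, adjusted p = 0.0149) and Col1a2 (-0.74 ± 0.22, adjusted p = 0.0352) were lower in old mice, and the summed level ran from 104 to 295 CPM in Young Veh, 93.6 to 243 in Young PF4, 67.0 to 241 in Old Veh and 105 to 253 in Old PF4. Smooth muscle markers were lower for Acta2, Tagln and Myl9, 3 of 6, and pericyte markers for none of 10 by edgeR, with 2 lower and 1 higher at an unadjusted p below 0.05, where DESeq2 called Rgs5 higher. Summed pericyte levels overlapped in all groups (135 to 225 CPM). Microglial markers were higher for 6 of 8, astrocyte and oligodendrocyte markers for 2 of 8 each, and Gpr17 of the oligodendrocyte precursors (1 of 6) and Tubb3 of the neurons (1 of 8) were lower. Only 2 of 5 red cell markers could be tested, and edgeR and DESeq2 called 0 of them, each with 1 at an unadjusted p below 0.05. The share of these tissues in the age differences of the barrier genes was not tested beyond the values that follow.

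Slco1c1 moved with the choroid plexus score above the gap, and below it the relation did not pass. After subtraction of the group mean, the correlation over the 24 libraries above the gap was r = 0.83 (Spearman rho = 0.82, adjusted p = 0.000315 and 0.000630, permutation test within groups) and 0.85 without the 2 libraries farthest from the median score. Over the 23 libraries below the gap it was r = 0.48 and rho = 0.49 (adjusted p = 0.221 and 0.188, permutation test). In Old Veh, Slco1c1 ran from 31.5 to 39.6 CPM in the 8 libraries below the gap and from 52.5 to 82.9 in the 4 above. In each of the 4 groups, all libraries above the gap had more Slco1c1 than all libraries below it. The sides nearly touched in Young Veh, with 49.3 CPM as the highest below the gap and 49.5 as the lowest above it. 

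Vcam1 moved with the scores of several mural and meningeal cell types. With the fibroblast and meninges score it gave r = 0.70 below the gap and 0.72 above it (rho = 0.65 and 0.61). Adjusted p were 0.0102 and 0.0120 for r and 0.0593 for each rho over 63 relations (permutation test), with r = 0.77 and 0.60 without the 2 farthest libraries. Its correlation with the smooth muscle score was r = 0.59 and rho = 0.51 over 47 libraries (adjusted p = 0.000315 and 0.0134, permutation test; r = 0.56 without the 2 farthest). Its correlation with the pericyte score was r = 0.50 and rho = 0.50 over 47 libraries (adjusted p = 0.00882 and 0.0134, permutation test; r = 0.52 without the 2 farthest). The log2 fold change of Vcam1 between ages was -0.23 (adjusted p = 0.124) with the choroid plexus score as a covariate and -0.21 (adjusted p = 0.121) with the fibroblast and meninges score. It was -0.25 and still called with the choroid plexus score and the length index together (adjusted p = 0.0479 in edgeR).

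Klf2 and Mfsd2a gave correlations with the choroid plexus score that lay below 0 and did not pass. Klf2 had r = -0.20 below and -0.12 above the gap (rho = -0.21 and -0.16) and Mfsd2a r = -0.29 and -0.03 (rho = -0.10 and -0.04), with adjusted p of 0.470 or higher (permutation test). With the score as a covariate the log2 fold change was -0.43 (adjusted p = 0.00525) for Klf2, -0.33 (adjusted p = 0.00111) for Mfsd2a and -0.25 (adjusted p = 0.00949) for Slc7a5, the 3 genes still called, while Tfrc (-0.11, adjusted p = 0.104) and Cd34 (0.11, adjusted p = 0.248) were not. Among libraries below the gap only, Klf2 (-0.57, adjusted p = 0.0212) and Mfsd2a (-0.35, adjusted p = 0.0237) were called. In those libraries Vcam1 stood at -0.54 (adjusted p = 0.0502), Slco1c1 at -0.24 (0.0505) and Slc7a5 at -0.29 (0.0572 in edgeR). Tfrc stood at -0.05 there (adjusted p = 0.710) and Cd34 at 0.17 (adjusted p = 0.199). Among libraries above the gap 0 of 42 were called, with Klf2 at -0.25, Mfsd2a at -0.22, Vcam1 at -0.18, Slco1c1 at -0.22 and Slc7a5 at -0.15. Without the 8 libraries under 5000000 counts, Klf2, Mfsd2a and Vcam1 were called, while Slco1c1 (-0.40, adjusted p = 0.117), Slc7a5 (-0.21, adjusted p = 0.0811) and Tfrc (-0.11, adjusted p = 0.0949) stood close to their values in all libraries but were not called. Cd34 stood at 0.10, against 0.15 in all libraries, and was not called either (adjusted p = 0.302). The split by score, the fibroblast covariate and the length index were added after the data had been seen. The share of all tested genes called was not counted in the fits with covariates or with fewer libraries.

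**Figure D4:**
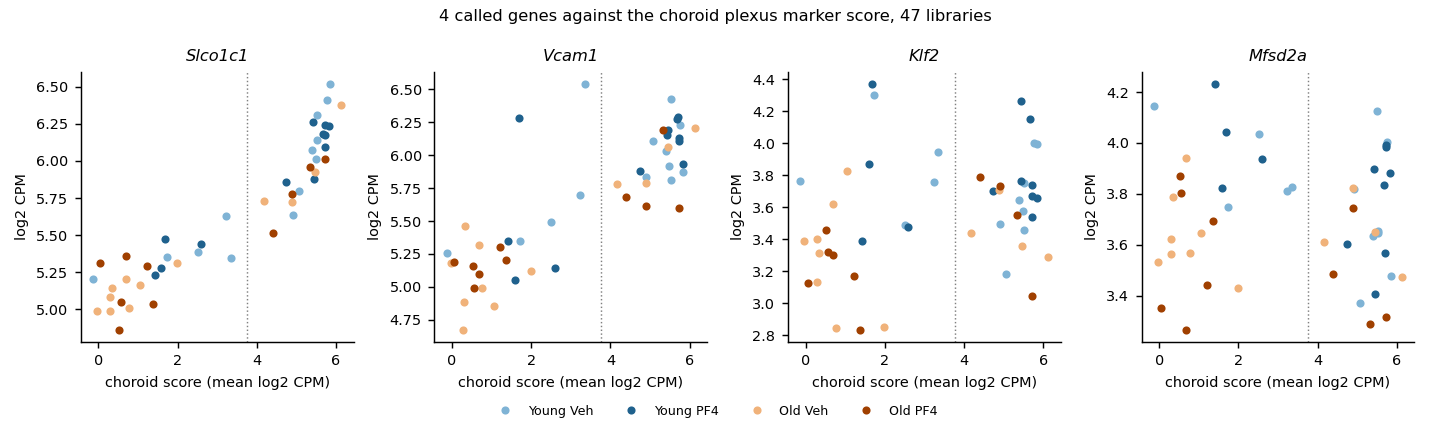
Log2 CPM (vertical axis) of Slco1c1, Vcam1, Klf2 and Mfsd2a against the choroid plexus score (horizontal axis, mean log2 CPM of 10 markers) in 47 libraries coloured by group, with a dotted line at the gap, 3.76. Slco1c1 rises along the score in every group, and Klf2 and Mfsd2a show no such slope.

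PF4 was then compared with vehicle at each age. In old mice, where 0.0337% of all tested genes were called, edgeR and DESeq2 each called 0 of the 42, with 1 at an unadjusted p below 0.05 in each. That gene was Esam, a junction adhesion molecule, which ran from 13.8 to 21.6 CPM in Old Veh (median 15.9) and from 12.4 to 17.6 in Old PF4 (median 14.6). The groups overlapped, with 9 of 10 Old PF4 libraries below the Old Veh median, and the log2 fold change was -0.16 ± 0.075 (adjusted p = 0.770). The next smallest p belonged to Ly6a (-0.23 ± 0.12), Kdr (0.25 ± 0.15), Podxl (-0.17 ± 0.11) and Flt1 (-0.11 ± 0.081).

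The 7 genes called between ages had log2 fold changes of PF4 against vehicle in old mice that were smaller than 1 SE, or close to it. Klf2 stood at 0.00 ± 0.13, Vcam1 at 0.01 ± 0.18, Slco1c1 at 0.00 ± 0.18, Cd34 at -0.00 ± 0.067 and Tfrc at -0.01 ± 0.052. Mfsd2a stood at -0.07 ± 0.094 and Slc7a5 at -0.09 ± 0.084. The glucose carrier Slc2a1 was at -0.04 ± 0.081, Cldn5 at -0.06 ± 0.13, Itm2a at 0.02 ± 0.11 and Ramp2 at 0.02 ± 0.061. Over the 42 genes the log2 fold changes ran from -0.34 (Erg, SE 0.26) to 0.25, with 19 above and 23 below 0.

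In young mice 0% of all tested genes were called, and edgeR and DESeq2 each called 0 of the 42, with 1 at an unadjusted p below 0.05 in each. It was Tfrc, with medians of 102 CPM in Young Veh and 109 in Young PF4 and a log2 fold change of 0.10 ± 0.048 (adjusted p = 1.00). Nos3 (-0.14 ± 0.12), Sox17 (0.14 ± 0.12), Cd34 (-0.07 ± 0.062) and Icam2 (-0.19 ± 0.16) followed. The 42 log2 fold changes ran from -0.19 to 0.14.

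The difference of the PF4 effects between ages, which is also the difference of the age effects between treatments, was called for 0% of all tested genes and for 0 of the 42 by edgeR and DESeq2, with 0 of the 42 at an unadjusted p below 0.05 in either. Esam (-0.18 ± 0.10), Flt1 (-0.17 ± 0.11), Tfrc (-0.10 ± 0.071), Podxl (-0.21 ± 0.15) and Nos3 (0.22 ± 0.17) had the smallest p. For Klf2 the difference was -0.07 ± 0.18 and for Vcam1 -0.01 ± 0.24. These SEs are wide beside the age effects of -0.43 for Klf2 and -0.50 for Vcam1.

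**Figure D5:**
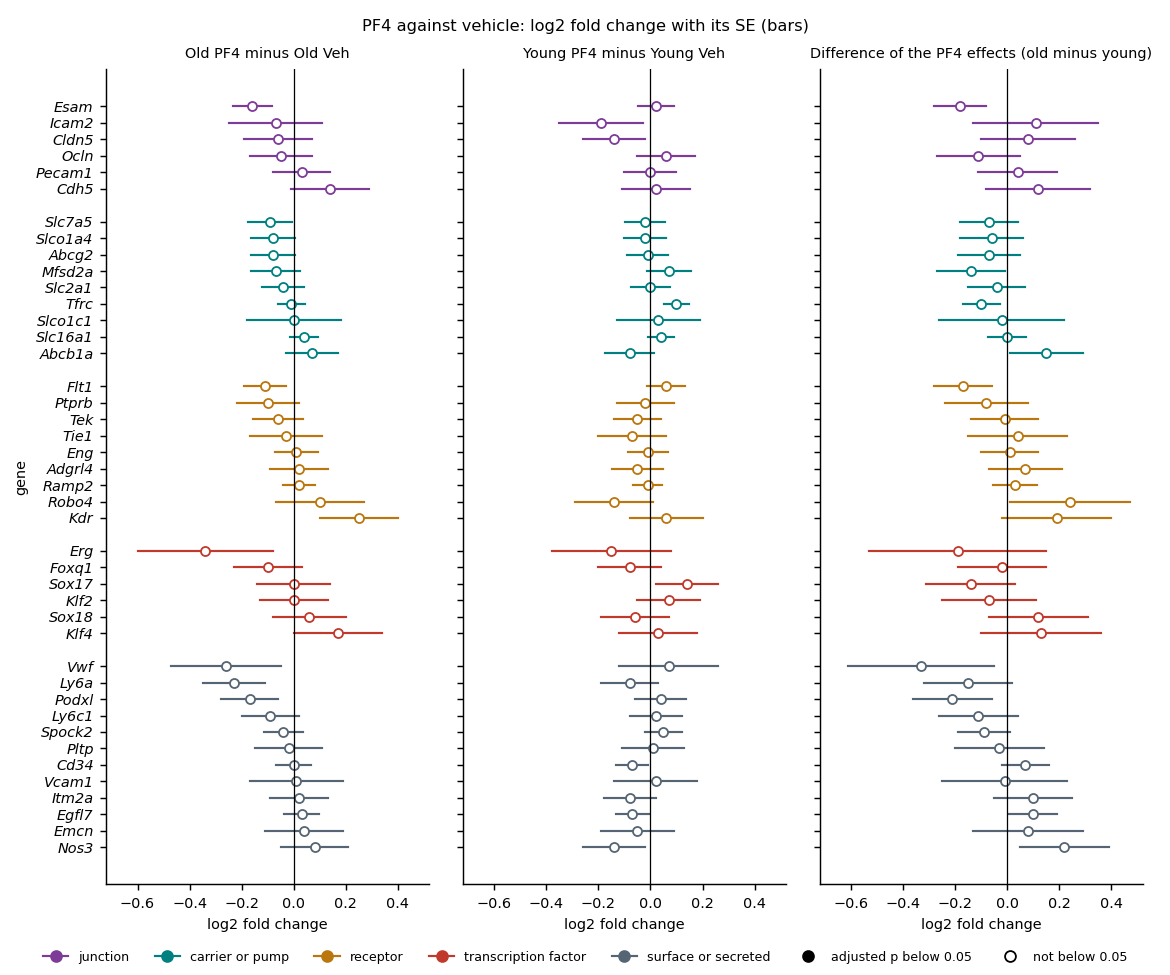
Log2 fold change of PF4 against vehicle (horizontal axis) with its SE as a bar for each of the 42 genes in old mice, in young mice, and the difference between both. No point is filled, since no gene had an adjusted p below 0.05, and the old-mouse values ran from -0.34 to 0.25.

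Beyond the 42 genes, 8 lists of related vascular genes were read in the comparison of ages over both treatments, in which 1.41% of all tested genes were called lower and 3.31% higher. Of 15 further junction genes, Tjp1 (the scaffold ZO-1) was the only one called and was higher in old mice (log2 fold change 0.20 ± 0.038, adjusted p = 0.000591), with 0.33 ± 0.052 in vehicle and 0.07 ± 0.056 in PF4. The difference of those values was -0.26 ± 0.076 and did not pass over all genes (adjusted p = 0.893). Of 23 further carriers, the taurine carrier Slc6a6 was higher (0.17 ± 0.034, adjusted p = 0.00131), and of 13 tested genes of vesicle traffic and fenestration the insulin receptor Insr was higher (0.21 ± 0.040, adjusted p = 0.000376). These 3 genes are also expressed outside endothelium. The caveolar coat genes Cavin1 and Cavin2 stood at -0.27 ± 0.090 and -0.25 ± 0.089, with adjusted p of 0.0705 and 0.0890 from edgeR.

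In Wnt signalling at the barrier, the ligand Wnt7b stood at -0.18 ± 0.057 (adjusted p = 0.0518 in edgeR, called by DESeq2). The Wnt target Axin2 and the Wnt effector Lef1 stood at -0.15 ± 0.061 and -0.24 ± 0.096. Of 27 tested genes of VEGF, angiopoietin, Notch and sphingosine phosphate signalling, the Notch target Hey2 was lower (-0.44 ± 0.13, adjusted p = 0.0391) and the BMP receptor Bmpr2 higher (0.19 ± 0.056, adjusted p = 0.0388). Of 17 further endothelial transcription factors edgeR called 0, with 3 higher and 2 lower at an unadjusted p below 0.05, and DESeq2 called Tcf4 higher.

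Among 10 tested genes of leukocyte adhesion, which include Vcam1, the interleukin-1 receptor Il1r1 was also lower (-0.25 ± 0.069, adjusted p = 0.0209), with -0.44 ± 0.10 in PF4 and -0.07 ± 0.094 in vehicle, a difference of -0.36 ± 0.14 that did not pass over all genes (adjusted p = 1.00). Of 37 further endothelial genes, 4 were lower and 0 higher, beside 1.41% and 3.31% of all tested genes. The 4 were Paqr5 (-0.51 ± 0.13, adjusted p = 0.0136), Palmd (-0.18 ± 0.047, adjusted p = 0.0152), Rasip1, which acts in vessel lumen formation (-0.15 ± 0.041, adjusted p = 0.0268), and Gkn3, an arterial marker (-0.57 ± 0.18, adjusted p = 0.0482). The median log2 fold change of this list was -0.064, close to the -0.067 of the 42 genes.

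Within groups, barrier genes varied together to different degrees. Over 861 pairs of the 42 genes, after subtraction of group means, 165 pairs were correlated above 0 and 26 below 0 at an adjusted p below 0.05 (permutation within groups, 47 libraries). A correlation above 0.5 was found in 9.52% of these pairs and in 2.94% of pairs of all tested genes, and one below -0.5 in 0.813% and 2.51%. Libraries share their depth and tissue makeup, which enters all of these values.

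Pecam1 and Kdr gave the highest value, r = 0.79 and rho = 0.85, with 0.76 and 0.83 in libraries below and above the choroid plexus gap (adjusted p = 0.000307, permutation test; r = 0.79 without the 2 farthest libraries). The receptors Flt1 and Ptprb had r = 0.74 and rho = 0.77, the neighbouring surface antigens Ly6c1 and Ly6a r = 0.75 and rho = 0.63, and Pecam1 and Vwf r = 0.72 and rho = 0.73 (adjusted p = 0.000307 for each r, permutation test), all of 0.70 or more on each side of the gap. Slc2a1 and Ptprb had r = 0.72 and rho = 0.57, which was 0.54 for r without the 2 farthest libraries. Ocln and Slco1c1 (0.71 below and 0.48 above the gap) and Slco1c1 and Vcam1 (0.26 and 0.43) were also among the highest over all libraries, at r = 0.77 and 0.74, but lower within the sides. Itm2a and Spock2 ran against each other (r = -0.68, rho = -0.57, adjusted p = 0.000307, permutation test). Flt1 and Vwf each had 12 partners with r above 0.5 and Pecam1, Ly6c1 and Podxl 10 each, whereas Icam2, Tfrc, Abcb1a, Tek, Tie1, Robo4, Erg, Sox17, Foxq1 and Cd34 had 0. Klf2 had 1 such partner and Mfsd2a had 2.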

How the data were processed

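The table that the authors deposited holds unnormalized read counts by gene for 47 hippocampal libraries, prepared with Smart-Seq2 and Nextera XT without strand information. The submitters' processing notes name Trim Galore 0.3.7, STAR 2.5.3a, DESeq2 and the build GRCm38; the counting tool and annotation were not given in the sources used here. According to the methods, samples under a set minimum of reads had been excluded.

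Counts were read as deposited, and groups were taken from the labels. edgeR 4.0.16 in R 4.3.3 (TMM, filterByExpr, quasi-likelihood test) was fitted to the 4 groups together, and a gene was called where its p, adjusted over 17778 genes by Benjamini-Hochberg, was below 0.05. Each SE was taken as the size of the log2 fold change over the root of its F statistic. A prior count of 2 was added for values on the log2 CPM scale. DESeq2 1.42.0 was run as an alternative. Correlations used deviations from group means and 100000 permutations within groups, two-sided, with 1e-05 as the smallest p they can give. Lengths and overlaps came from GENCODE on GRCm38.

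The length index is the mean centred log2 CPM of long genes (longest transcript of 4594 bases or more) less that of short genes (2006 bases or fewer). Total counts of 2242879 to 21112908 set the counting error of a single library. The SEs of the fit also hold the spread between libraries.

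Named with full statistics are genes of the list called in any comparison and the gene of highest level per kilobase in each role; in each comparison the 5 with the smallest p are given. Related genes are named where called, with at most 3 others per list. The 42 genes, the lists and the markers were chosen with earlier results of these data known. 1 result of the Wnt list is not reported here. The fit was tested on simulated counts. Alternatives were another normalization and tool, filters, a replicate block, covariates, left-out libraries and subsets of libraries.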

Additional observations from a re-analysis of the deposited data

Results flagged for a closer look

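In Old PF4, the only group of a size at which single libraries were examined (n = 10), 4 genes had a library set apart from the other 9 by more than the 95% limit of Dixon's test. Chance alone gives this in about 1 in 20 genes. In Old PF4 replicate 2, Icam2 stood at 2.22 log2 CPM against 1.35 for the next library, Kdr at 5.11 against 4.42 and Adgrl4 at 5.43 against 4.79, all high. In Old PF4 replicate 8, Slc2a1 stood low at 6.10 log2 CPM against 6.49 for the next. None of these 4 genes was called in any comparison.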

How the results depend on the processing

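Of the 7 genes called between ages over both treatments, Klf2, Mfsd2a, Slco1c1 and Vcam1 were called whichever of the 47 libraries was left out, Slc7a5 in 38, Cd34 in 17 and Tfrc in 11 of 47 fits; the count ran from 4 to 7, and was 4 without Young Veh 11, Young PF4 5, Young PF4 7 or Old PF4 1. It was 3 with the choroid plexus score as a covariate, 0 with library number, which separates the ages completely, 3 without libraries under 5000000 counts and, in alternatives added after the data had been seen, 3 with the fibroblast and meninges score, 4 with the choroid plexus score and the length index, 2 in libraries of low and 0 in libraries of high choroid plexus score. Changes of normalization or filter left 5 or 6 genes, without Tfrc for DESeq2 size factors (adjusted p = 0.0548), without Cd34 for a stricter filter (0.0506) and without both for no filter (0.0694 and 0.0702, all edgeR). With library number as a covariate the sign for Cd34 reversed (-0.12, adjusted p = 0.979 in edgeR); the cause was not tested. In vehicle, 0 genes became 1 with DESeq2, 4 with the length index (Klf2, Nos3, Slc7a5, Vcam1) and 2 with both covariates (Mfsd2a, Slc7a5), and 0 to 2 with 1 library left out (Klf2 without Young Veh 8 or Old Veh 5, Vcam1 without Old Veh 4, Slco1c1 and Vcam1 without Old Veh 10). In PF4, 0 became 1, Mfsd2a, with the choroid plexus score, with both covariates and with a replicate block. Same-numbered libraries did not vary together (median r from -0.08 to 0.11, lowest -0.42, highest 0.55, and at most 5 of 10 pairs over 0.1), so the replicate number is only a name; with it as a block, 6 genes were called over both treatments, all but Cd34 (adjusted p = 0.0708 in edgeR). The 3 comparisons of PF4 gave 0 genes in every alternative. The share of all tested genes called was not counted in the edgeR alternatives, so the counts given here stand without that background. Genes with few reads, such as Erg (1 to 35 per library), have wide SEs (0.17 for Erg between ages), which also hold the spread between libraries. Smaller changes may have been missed, and no detection limit was tested.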
